A study of Homo sapiens with 4 samples.

Results

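The integrated stress response and the unfolded protein response were followed through 31 genes listed by symbol, of which 29 had values and were analysed, among 18334 genes measured in all. They were read by 58 array features, 15 genes by a single feature and 14 by several, whose mean gave the gene's value. MTHFD2 and SLC3A2 were not analysed here. The cells were LNCaP, a human prostate cancer line that responds to androgen. They were serum starved for 24 h and then received 1 µM 5-azacytidine, a nucleoside drug that inactivates DNA methyltransferases once it is in DNA, or its vehicle DMSO. On every 2-colour Agilent array the azacytidine RNA (Cy5) was set against DMSO RNA of the same time (Cy3), with 2 arrays after 48 h and 2 after 24 h. Every value below is thus a log2 ratio of azacytidine over DMSO, given as the mean ± SD of n = 2 arrays at a time unless single arrays are named. Serum starvation is shared by all azacytidine and DMSO cells.

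The deposited values state neither base nor direction. Base 10 and a ratio of Cy5 to Cy3 were assumed from the scanner software's convention, and the labels give the dyes. With the ratio turned, every rise below would be a fall and the highest value the lowest. No dye swap was made. The labels do not state whether replicates were separate cultures. The p-values therefore reflect array-to-array spread alone, possibly technical, and the number of arrays limits the precision. In the main fit each p-value rests on a single spread per gene, shared by both times, and not on the SD printed at that time. The median SD of the genes followed was 0.214 at 48 h and 0.051 at 24 h, so the shared spread tends to lie below that of the 48 h arrays. Replicate arrays differed by a median of 0.332 over all genes at 48 h and 0.126 at 24 h. The arrays hold ratios and not levels, so the presence of the line's markers could not be checked. Of 5 measured LNCaP markers 2 were higher and 3 lower at 48 h, and 2 were higher and 2 lower at 24 h. By the limma test used below, 18.2% of all genes were higher and 20.7% lower at 48 h, and 14.3% and 9.97% at 24 h. Of 6 markers of leukocytes, endothelium, fibroblasts and basal cells, 1 was higher at 48 h and 2 at 24 h, with ratios from 0 to 2.45 at 48 h and from -1.03 to 2.83 at 24 h, and KRT5 was listed at 0 on all 4 arrays. Their part in the results was not tested. In RNA from whole cultures, more cells that express a gene and more RNA per cell cannot be told apart.

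As background, the integrated stress response starts from kinases that phosphorylate the initiation factor eIF2, among them PERK, which senses misfolded protein in the endoplasmic reticulum (ER), and GCN2, which senses uncharged tRNA. General translation then falls while the transcription factor ATF4 is made more efficiently from its mRNA, so that ATF4 mRNA and ATF4 activity need not move together. ATF4 and its partners switch on genes of amino acid uptake, serine and asparagine synthesis and tRNA charging, together with brakes such as PPP1R15A and TRIB3. The unfolded protein response adds the IRE1 branch, which splices XBP1 mRNA, and the ATF6 branch, and these raise chaperones and degradation factors of the ER.

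At 48 h, 7 of the 29 genes rose and 9 fell by the limma test (adjusted p under 0.05 over all genes), against 18.2% of all genes higher and 20.7% lower. At 24 h, 11 rose and 2 fell, against 14.3% of all genes higher and 9.97% lower. The share that rose was thus 24.1% at 48 h and 37.9% at 24 h, and the share that fell was 31.0% at 48 h and 6.9% at 24 h. The median ratio of the 29 genes was 0.10 at 48 h and 0.38 at 24 h, while that of all genes was 0 at both times. ATF3, CHAC1, PPP1R15A, SLC7A5 and CEBPB rose at both times, as did 7.4% of all genes. EIF4EBP1 fell at both, as did 4.01% of all genes. TRIB3, VLDLR and SLC7A11 fell at 48 h and rose at 24 h, as did 3.37% of all genes. ATF4 rose at 48 h and fell at 24 h, as did 1.05% of all genes.

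In the test of 48 h minus 24 h, 4 genes were higher at 48 h and 5 were lower, against 9.83% of all genes higher and 13.1% lower. These were ATF4, CHAC1, STC2 and EIF4EBP1 in the upward direction and SLC7A11, XBP1, TRIB3, DDIT3 and VLDLR in the downward direction. All of these calls need both 24 h arrays. The shares of all genes called were not determined for the fits without an array. Without 24 h replicate 1, and likewise without 24 h replicate 2, limma called 0 of the 29 genes at 48 h (13 at an unadjusted p under 0.05), 0 at 24 h (8) and 0 in the difference (8). Without 48 h replicate 1 it called 15 genes in the difference, 3 higher and 12 lower.

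**Figure D1:**
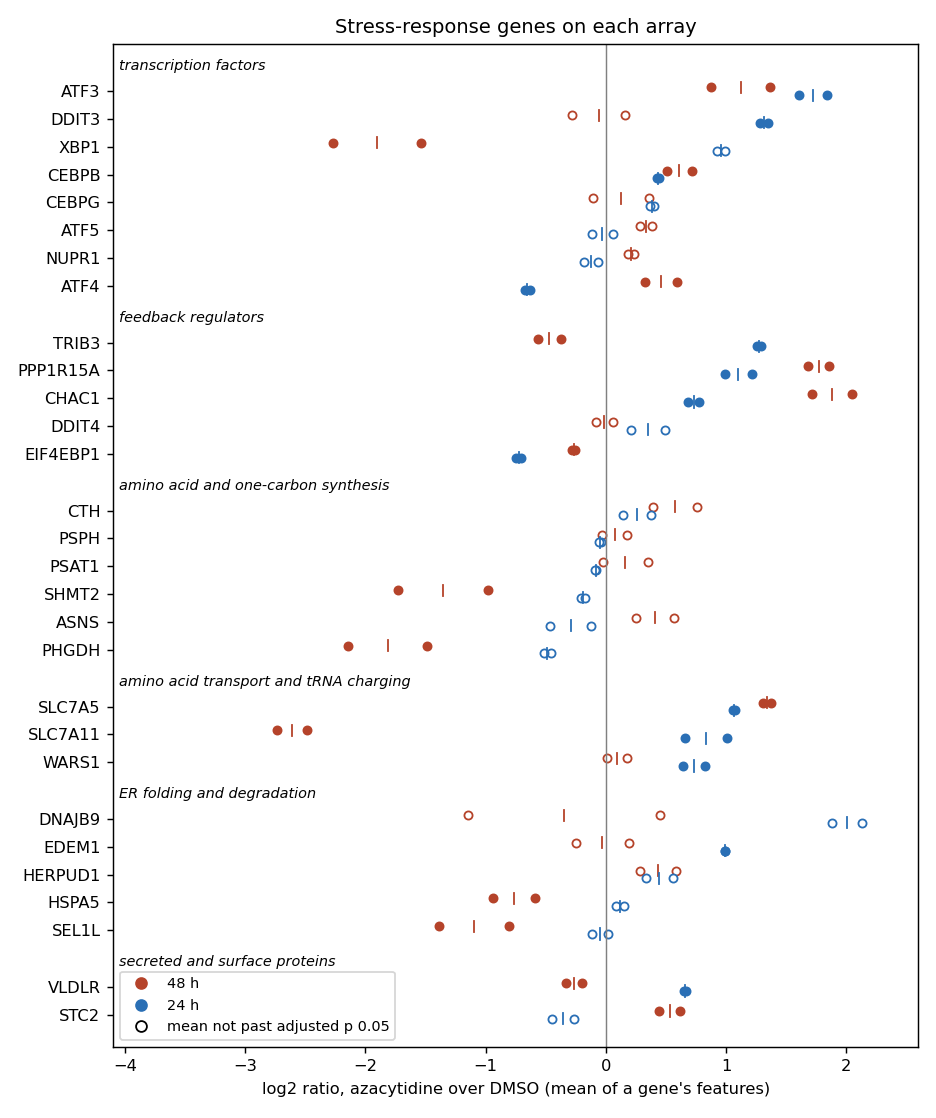
Log2 ratio of azacytidine over DMSO on the horizontal axis for each of the 29 genes, grouped by role, with a point for each 48 h array (red) and each 24 h array (blue), a tick at the mean, and filled points where the mean passed the limma threshold. SLC7A11, XBP1 and PHGDH have their 48 h points furthest to the left, and DNAJB9 and ATF3 their 24 h points furthest to the right.

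Promoter sequences were searched for exact matches to elements that the response is known to use. A gene without a match may still hold an element outside the stretch searched or with other letters. RefSeq windows of GRCh38.p14, from 250 bases before to 50 after the start, were matched by symbol for 24 of the 29 genes and for 14411 genes of the array. The core of the C/EBP-ATF response element, TGATGNAA, was searched on both strands and stood in 4 of the 24 windows, or 16.7%, against 15.3% of 72 other genes of the pathway and 2.35% of the array's genes. The ER stress response element, which is CCAAT and CCACG with 9 bases between them, stood in 2 of 24, or 8.33%, against 8.33% of those other genes and 0.118% of the array's. ER stress response element II, which is ATTGG and CCACG with 1 base between them, stood in 1 of 24, or 4.17%, against 2.78% and 0.0971% in the same order. The core TGACGTGG of the unfolded protein response element stood in 0 of 24, against 5.56% and 0.909%. CCAAT and ATTGG are the CCAAT box itself on the 2 strands, so that both ER stress elements overlap it, and the box alone stood in 70.8% of the 24 windows, 59.7% of the other pathway genes and 36.4% of the array's genes. A match is a run of letters and was not shown to be bound here. Both lists were made of genes known for this response, so shares above those of the array are no independent result. PSPH, SHMT2, SLC7A11, NUPR1 and EIF4EBP1 had no window. A single window per gene was searched, and any other starts of a gene were not.

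The stretches that hold these elements are printed 5′ to 3′ on the strand of the gene, with the element in capitals. ATF3 and CHAC1 are the genes called in the same direction at both times that hold one, and the other 4 were added after their values were seen, since HSPA5, XBP1 and HERPUD1 stand for the ER branches and ASNS for amino acid synthesis. In CHAC1 and HERPUD1 the C/EBP-ATF core lies on the opposite strand, so that it reads TTGCATCA here.
ATF3, chr1:212565186-212565253, plus strand: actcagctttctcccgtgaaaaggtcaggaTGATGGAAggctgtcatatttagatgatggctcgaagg
CHAC1, chr15:40953232-40953299, plus strand: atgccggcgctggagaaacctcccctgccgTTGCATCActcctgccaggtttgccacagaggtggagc
ASNS, chr7:97872439-97872506, minus strand: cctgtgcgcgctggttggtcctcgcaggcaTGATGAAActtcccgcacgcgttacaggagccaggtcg
HSPA5, chr9:125241361-125241439, minus strand: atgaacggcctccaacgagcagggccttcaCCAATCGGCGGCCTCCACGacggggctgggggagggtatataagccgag
XBP1, chr22:28800573-28800651, minus strand: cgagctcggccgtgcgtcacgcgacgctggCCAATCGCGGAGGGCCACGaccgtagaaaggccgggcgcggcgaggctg
HERPUD1, chr16:56931936-56932065, plus strand: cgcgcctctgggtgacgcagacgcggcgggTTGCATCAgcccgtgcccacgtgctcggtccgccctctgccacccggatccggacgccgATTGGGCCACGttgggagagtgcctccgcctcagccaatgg
Counted from the start, the first base shown is at -221 in ATF3, -239 in CHAC1, -98 in ASNS, -96 in HSPA5, -82 in XBP1 and -206 in HERPUD1. The 6 genes did not share a pattern of ratios. ATF3 and CHAC1 rose at both times, HSPA5 and XBP1 fell at 48 h, and HERPUD1 and ASNS passed the test at neither time.

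Of the 8 transcription factors, 3 rose and 1 fell at 48 h, and 3 rose and 1 fell at 24 h. Beside these and the other counts by role below stand 18.2% of all genes higher and 20.7% lower at 48 h. At 24 h those shares were 14.3% and 9.97%. No role was tested as a set against them. ATF3, a bZIP factor induced by ATF4 and by many other stresses, had log2 ratios of 1.37 and 0.88 on the 48 h arrays and of 1.61 and 1.84 on the 24 h arrays. All 4 arrays were above 0. Its mean was 1.12 ± 0.35 at 48 h (limma adjusted p = 0.0312) and 1.73 ± 0.16 at 24 h (adjusted p = 0.0250), or 2.18-fold and 3.31-fold. The difference between the times did not pass the test (adjusted p = 0.161). Its 3 features stood apart, at 0.45, 0.50 and 2.42 at 48 h and at 0, 2.84 and 2.33 at 24 h, in the same order. The first of them has another accession than the other features and was listed at 0 on 3 arrays. With features at 0 left out ATF3 stood at 1.46 at 48 h and 2.59 at 24 h, and with accessions averaged first at 0.95 at 48 h and 1.29 at 24 h. With the median of features the 48 h value was 0.67 and no longer passed (adjusted p = 0.0686), and it did not pass without 48 h replicate 1 (0.0663), without 48 h replicate 2 (0.0532) or with the arrays scaled to one spread (0.0653).

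ATF4, the central factor of the integrated stress response, stood at 0.325 and 0.588 on the 48 h arrays and at -0.675 and -0.635 on the 24 h arrays. The 48 h arrays lay above 0 and the 24 h arrays below it. Its mean was 0.46 ± 0.19 at 48 h (adjusted p = 0.0449) and -0.65 ± 0.028 at 24 h (adjusted p = 0.0364), with a difference of 1.11 (standard error 0.12, adjusted p = 0.0363). Its 3 features did not run together. At 48 h 2 of them passed the test upward, at 1.14 and 1.02, and 1 downward, at -0.79. At 24 h the same 3 features were at -1.22, -0.61 and -0.14, and the first of these passed. With the median of features the 48 h mean was 1.02. The 48 h call of the gene ended without 48 h replicate 2 (adjusted p = 0.0543) and with limma's robust moderation of the variances (0.0551), and the 24 h call ended with the median of features (0.059).

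DDIT3, which encodes CHOP, a factor tied to cell death under prolonged ER stress, had ratios of -0.28 and 0.16 on the 48 h arrays and of 1.28 and 1.35 on the 24 h arrays. The 48 h arrays lay on both sides of 0, and the 24 h arrays were both above 1. It rose 2.49-fold at 24 h, at 1.32 ± 0.051 (adjusted p = 0.0280), and stood at -0.059 ± 0.31 at 48 h (adjusted p = 0.810). The difference was -1.37 (standard error 0.20, adjusted p = 0.0444), and that call ended with robust moderation (0.0571). CEBPB, a C/EBP factor with which ATF4 and CHOP form dimers, rose to 0.61 ± 0.15 at 48 h (adjusted p = 0.0217) and to 0.43 ± 0.011 at 24 h (adjusted p = 0.0478). Of its 12 features, 10 lay close together, between 0.51 and 0.56 at 48 h and between 0.47 and 0.59 at 24 h. The other 2 stood at 0.88 and 1.11 at 48 h and at -0.25 and 0.21 at 24 h. Its 48 h call ended with the median of features (adjusted p = 0.0616) and with arrays scaled to one spread (0.0537). Its 24 h call ended with the median of features (0.0831), scaling (0.0618), quantile normalization (0.0743), features at 0 left out (0.0631) and robust moderation (0.0575). None of its own features was at 0, so its value stayed at 0.43 when features at 0 were left out.

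XBP1, the factor of the IRE1 branch, stood at -1.54 and -2.27 on the 48 h arrays and at 0.92 and 0.99 on the 24 h arrays. The arrays of the 2 times lay on opposite sides of 0. It fell to -1.91 ± 0.52 at 48 h (adjusted p = 0.0225), a 3.75-fold reduction, and its 24 h mean of 0.96 ± 0.047 did not pass (adjusted p = 0.0803). The difference was -2.86 (standard error 0.32, adjusted p = 0.0365). Both XBP1 features had this pattern, at -2.42 and -1.40 at 48 h and at 1.40 and 0.52 at 24 h. Tested singly, the first of them passed downward at 48 h and upward at 24 h. The other passed at neither time. The features carry different XBP1 accessions, and whether they tell the spliced from the unspliced mRNA was not tested. CEBPG, ATF5 and NUPR1 passed the test at no time, with means of 0.12, 0.33 and 0.21 at 48 h and of 0.38, -0.03 and -0.13 at 24 h.

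Among 5 genes whose products restrain growth or feed back on the response, 2 rose and 2 fell at 48 h, and 3 rose and 1 fell at 24 h. CHAC1, a glutathione-degrading enzyme and target of ATF4, had ratios of 1.72 and 2.05 on the 48 h arrays and of 0.68 and 0.78 on the 24 h arrays. All were above 0, and the 48 h arrays stood above the 24 h arrays. It rose to 1.88 ± 0.23 at 48 h (adjusted p = 0.0102) and to 0.73 ± 0.068 at 24 h (adjusted p = 0.0424), or 3.69-fold and 1.66-fold. The difference was 1.15 (standard error 0.15, adjusted p = 0.0418). With robust moderation the 24 h call (adjusted p = 0.0541) and the difference (0.0539) ended. PPP1R15A, which encodes GADD34, the subunit that directs a phosphatase to eIF2, stood at 1.86 and 1.68 on the 48 h arrays and at 0.99 and 1.22 on the 24 h arrays. It rose to 1.77 ± 0.12 at 48 h (adjusted p = 0.00957) and to 1.102 ± 0.16 at 24 h (adjusted p = 0.0218), and the difference did not pass (adjusted p = 0.0589).

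TRIB3, a pseudokinase that binds ATF4 and CHOP and dampens them, stood at -0.38 and -0.57 on the 48 h arrays and at 1.29 and 1.25 on the 24 h arrays. The times lay on opposite sides of 0, with a mean of -0.47 ± 0.13 at 48 h (adjusted p = 0.0288) and 1.27 ± 0.026 at 24 h (adjusted p = 0.0155). The difference was -1.74 (standard error 0.093, adjusted p = 0.0238). Its 2 features, both of one accession, parted at 48 h. One stood at -1.78 at 48 h and at 1.83 at 24 h, the other at 0.84 at 48 h and at 0.71 at 24 h, and each passed the single-feature test at both times. EIF4EBP1, which encodes the translation inhibitor 4E-BP1, fell at both times, to -0.27 ± 0.017 at 48 h (adjusted p = 0.0241) and to -0.72 ± 0.028 at 24 h (adjusted p = 0.0149). Its 4 arrays lay between -0.744 and -0.256. Its 48 h call ended without 48 h replicate 1 (adjusted p = 0.0543) and without 48 h replicate 2 (0.0614), with arrays scaled to one spread (0.0519), with quantile normalization (0.0643) and with features at 0 left out (0.13). The difference of 0.46 (standard error 0.047, adjusted p = 0.0343) ended without 48 h replicate 2 (0.0538) and with features at 0 left out (0.092). With features at 0 left out the values of EIF4EBP1 itself did not change, as its only feature was at 0 on no array. DDIT4, which encodes the mTORC1 inhibitor REDD1, stood at -0.01 ± 0.10 at 48 h and 0.35 ± 0.20 at 24 h and passed at neither time.

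The 6 genes of amino acid and one-carbon synthesis gave 0 higher and 2 lower at 48 h, and 0 higher and 0 lower at 24 h (0 of 6 by limma at an adjusted p under 0.05, and 0 of 6 also at an unadjusted p under 0.05). PHGDH, the first enzyme of serine synthesis, stood at -1.49 and -2.15 on the 48 h arrays and at -0.46 and -0.52 on the 24 h arrays. All 4 were below 0, and it fell 3.52-fold at 48 h, at -1.82 ± 0.47 (adjusted p = 0.0211). Its 24 h mean was -0.49 ± 0.044 (adjusted p = 0.198). SHMT2, the mitochondrial enzyme that takes a carbon unit from serine, fell to -1.36 ± 0.53 at 48 h (adjusted p = 0.0379), with -0.98 and -1.73 on the 2 arrays, and was at -0.19 ± 0.021 at 24 h (adjusted p = 0.601). Its features were at -1.94 and -0.77 at 48 h, and the first passed the single-feature test.

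The other 4 genes of this role passed at no time. ASNS, asparagine synthetase and a classical target of ATF4, was at 0.41 ± 0.22 at 48 h (adjusted p = 0.125) and at -0.29 ± 0.24 at 24 h (adjusted p = 0.248). CTH, which makes cysteine from cystathionine, was at 0.58 ± 0.26 and 0.26 ± 0.16 at 48 h and 24 h. PSAT1, the second enzyme of serine synthesis, was at 0.16 ± 0.26 and -0.09 ± 0.004 in the same order. The mean of PSPH, the last enzyme of that path, was near 0 at both times, while its 3 features ran from -0.37 to 0.95 at 48 h and from -0.94 to 0.56 at 24 h.

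The 3 genes of amino acid transport and tRNA charging held 1 that rose, 1 that fell and 1 that did not pass at 48 h, and all 3 rose at 24 h. SLC7A11, the cystine-glutamate exchanger, had the largest difference of the 29 genes. It stood at -2.48 and -2.74 on the 48 h arrays and at 1.01 and 0.66 on the 24 h arrays, on opposite sides of 0. It fell 6.11-fold at 48 h, at -2.61 ± 0.18 (adjusted p = 0.00955), and was at 0.83 ± 0.25 at 24 h (adjusted p = 0.0477). The difference was -3.44 (standard error 0.19, adjusted p = 0.0241). All 3 features were negative at 48 h, between -2.90 and -2.21, and positive at 24 h, between 0.19 and 1.41. Tested singly, 1 of them passed at 48 h and 0 at 24 h, and the 24 h call of the gene ended without either 48 h array (adjusted p = 0.0827 in each case), with scaling (0.0622) and with robust moderation (0.061).

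SLC7A5, the large neutral amino acid transporter LAT1, stood at 1.37 and 1.31 on the 48 h arrays and at 1.06 and 1.07 on the 24 h arrays. Its arrays lay closer together than those of most genes here. It rose 2.53-fold at 48 h, at 1.34 ± 0.045 (adjusted p = 0.00714), and 2.09-fold at 24 h, at 1.07 ± 0.0087 (adjusted p = 0.0133), and the difference did not pass (adjusted p = 0.0560). Its features were at 2.00 and 0.68 at 48 h and at 1.74 and 0.39 at 24 h. WARS1, the tryptophanyl-tRNA synthetase, which interferon also induces, was at 0.10 ± 0.12 at 48 h (adjusted p = 0.422) and rose to 0.73 ± 0.13 at 24 h (adjusted p = 0.0291).

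Of 5 genes of ER folding and degradation, 0 rose and 2 fell at 48 h, and 1 rose and 0 fell at 24 h. HSPA5, which encodes the ER chaperone BiP, stood at -0.59 and -0.94 on the 48 h arrays and at 0.09 and 0.15 on the 24 h arrays. It fell to -0.76 ± 0.25 at 48 h (adjusted p = 0.0311) and was at 0.12 ± 0.043 at 24 h (adjusted p = 0.510). Its 2 features, both of one accession, did not run together. One stood at -1.59 at 48 h, where it passed the single-feature test, and at 0.42 at 24 h, the other at 0.07 at 48 h and at -0.18 at 24 h. SEL1L, a subunit of the ER ubiquitin ligase complex, fell to -1.099 ± 0.42 at 48 h (adjusted p = 0.0379) and was at -0.05 ± 0.094 at 24 h (adjusted p = 0.934). A single feature carried that fall, at -2.61 against -0.63 and -0.06 for the others at 48 h, and with the median of features SEL1L stood at -0.63 (adjusted p = 0.185). Its call also ended without 48 h replicate 2 (adjusted p = 0.0535).

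EDEM1, which delivers misfolded glycoproteins to degradation, stood at 0.19 and -0.25 on the 48 h arrays and at 0.991 and 0.990 on the 24 h arrays. It rose 1.99-fold at 24 h, at 0.99 ± 0.00054 (adjusted p = 0.0384), and was at -0.03 ± 0.31 at 48 h (adjusted p = 0.946). The 24 h call ended with robust moderation (adjusted p = 0.0502). One feature stood at -0.78 at 48 h and at 0.72 at 24 h and passed the single-feature test at both times, in opposite directions. The other stood at 0.72 at 48 h and at 1.26 at 24 h and passed at neither. DNAJB9, an ER co-chaperone and a target of XBP1, had the highest 24 h mean of the 29 genes, standing at 0.45 and -1.15 on the 48 h arrays and at 1.88 and 2.13 on the 24 h arrays. The 48 h arrays lay far apart, on both sides of 0. Its means of -0.35 ± 1.13 at 48 h (adjusted p = 0.642) and 2.00 ± 0.18 at 24 h (adjusted p = 0.0861) did not pass. HERPUD1, an ER membrane protein of the degradation machinery, was at 0.43 ± 0.21 at 48 h and 0.45 ± 0.16 at 24 h and passed at neither time.

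The 2 remaining genes encode a surface receptor and a secreted glycoprotein. VLDLR, a lipoprotein receptor known as a target of the PERK branch, was at -0.20 and -0.335 on the 48 h arrays and at 0.65 and 0.67 on the 24 h arrays. It fell to -0.27 ± 0.097 at 48 h (adjusted p = 0.0468) and rose to 0.66 ± 0.012 at 24 h (adjusted p = 0.0208), with a difference of -0.93 (standard error 0.073, adjusted p = 0.0280). Its 48 h call ended without 48 h replicate 2 (adjusted p = 0.0676), with features at 0 left out (0.138) and with robust moderation (0.0504). With features at 0 left out VLDLR itself stayed at -0.27 at 48 h, as its only feature was at 0 on no array, and only other genes of the fit changed. STC2, stanniocalcin 2, had ratios of 0.445 and 0.617 on the 48 h arrays and of -0.447 and -0.269 on the 24 h arrays, on opposite sides of 0. It rose to 0.53 ± 0.12 at 48 h (adjusted p = 0.0323), and its 24 h mean of -0.36 ± 0.13 did not pass (adjusted p = 0.0758). The difference was 0.89 (standard error 0.11, adjusted p = 0.0409). Without 48 h replicate 1, and without 48 h replicate 2, neither the 48 h call (adjusted p = 0.0742 and 0.124) nor the difference (0.0579 and 0.0869) passed, and the difference also ended with robust moderation (0.0515).

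**Figure D2:**
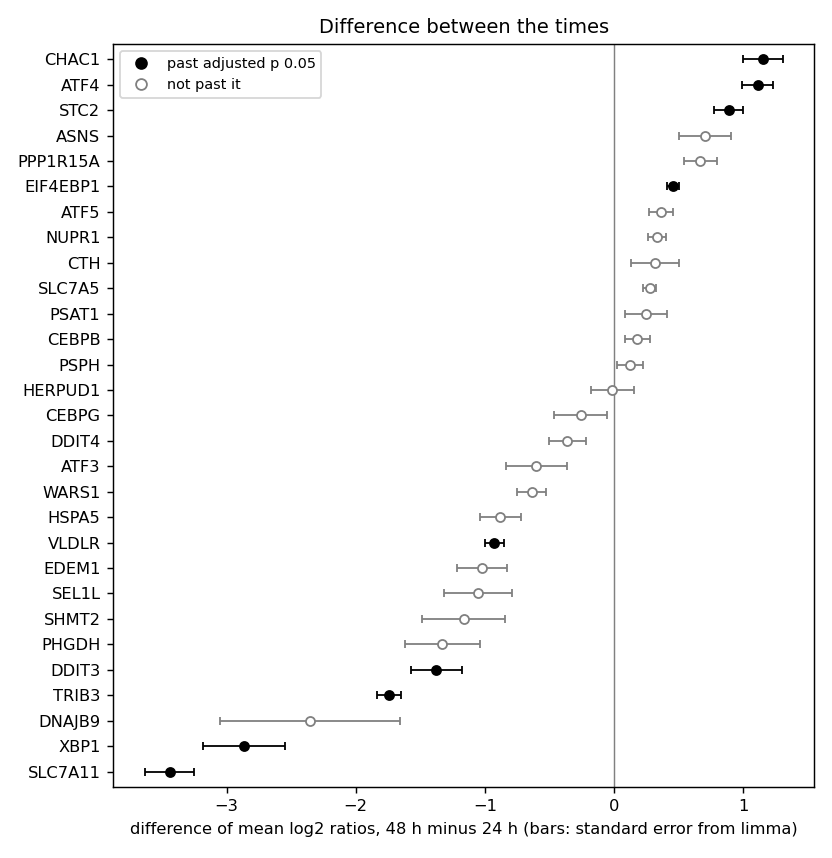
Difference of the mean log2 ratios, 48 h minus 24 h, on the horizontal axis for each of the 29 genes from the highest to the lowest, with the standard error from limma as bars and filled points past an adjusted p of 0.05. The values run from 1.15 for CHAC1 to -3.44 for SLC7A11.

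Features of the same gene were further apart among these genes than a single value per gene shows. For 11 of the 14 genes read by more than 1 feature, the highest and lowest feature differed by over 1 (log2) at 48 h, at 24 h or at both, or 78.6%, against 52.6% of 7759 such genes on the array. Features passed the single-feature test in opposite directions at the same time for 2 of the 14, TRIB3 and ATF4, both at 48 h, or 14.3% against 6.08%. With every feature tested singly, 17 of the 29 genes, or 58.6%, had a feature past the threshold at 48 h, against 46.4% of all genes. At 24 h it was 12, or 41.4%, against 28.4%. Genes with several features have more chances to pass, and among these the shares were 12 of 14 against 61.6% at 48 h and 6 of 14 against 37.9% at 24 h.

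**Figure D3:**
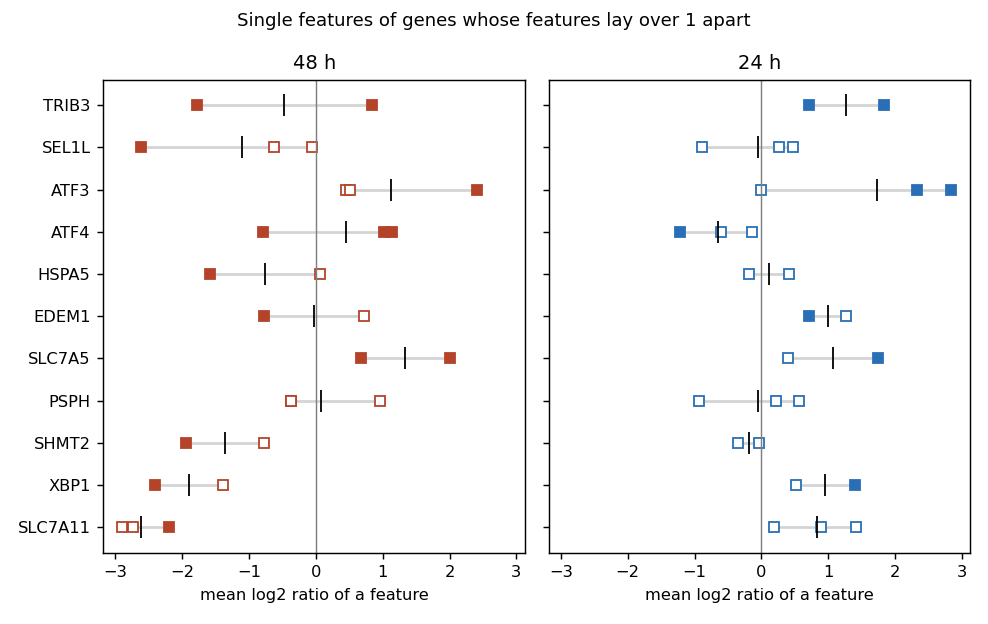
Mean log2 ratio of every single feature (squares, filled past an adjusted p of 0.05 over all features) of the 11 genes whose features lay over 1 apart, at 48 h (left) and 24 h (right), with the gene's mean as a black tick. The features of TRIB3, ATF4, HSPA5, PSPH and EDEM1 lie on both sides of 0 at 48 h, and those of SLC7A11 and XBP1 lie on one side at each time.

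Other genes of the pathway, 88 listed by role and 84 of them measured, were set beside these 29. At 48 h 13 of the 84 rose and 20 fell, or 15.5% and 23.8%, against 18.2% and 20.7% of all genes. At 24 h 19 rose and 5 fell, or 22.6% and 5.95%, against 14.3% and 9.97%. In the difference 3 were higher at 48 h and 20 lower, or 3.57% and 23.8%, against 9.83% and 13.1%. All of these calls in the difference need both 24 h arrays. Their median was -0.12 at 48 h and 0.39 at 24 h. Without either 24 h array, taken out in turn, limma called 0 of the 84 at 48 h (31 at an unadjusted p under 0.05) and 0 at 24 h (17 or 18).

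Among sensors, EIF2AK3, which encodes PERK, was at -1.04 ± 0.23 at 48 h (adjusted p = 0.0188) and at 0.67 ± 0.056 at 24 h (adjusted p = 0.0460). ATF6, the membrane-bound factor of the third branch, was at -1.43 ± 0.080 at 48 h (adjusted p = 0.00733) and at 0.49 ± 0.011 at 24 h (adjusted p = 0.0242). Both fell at 48 h and rose at 24 h, and for both the difference passed the test (-1.72 and -1.92, adjusted p = 0.0296 and 0.0213). EIF2AK4, which encodes GCN2, fell to -0.80 ± 0.20 at 48 h, and EIF2AK2, which encodes the double-stranded RNA sensor PKR, fell to -1.18 ± 0.27 at 24 h. Of the initiation machinery, EIF2S1, the eIF2 subunit that these kinases phosphorylate, fell to -2.21 ± 0.65 at 48 h (adjusted p = 0.0252), and its 24 h mean of 0.96 ± 0.11 did not pass (adjusted p = 0.115). The exchange factor subunit EIF2B4 fell to -1.23 ± 0.34 and EIF2B1 rose to 0.27 ± 0.020 at 48 h, while EIF2B2 rose to 0.92 ± 0.083, EIF2B5 to 0.65 ± 0.068 and EIF2B1 to 0.41 ± 0.047 at 24 h. EIF2A, an initiation factor outside the eIF2 complex, fell to -0.95 ± 0.11 at 24 h.

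Of 15 genes of ER chaperones and folding, 2 rose and 2 fell at 48 h, and 3 rose and 1 fell at 24 h. At 48 h these were 13.3% and 13.3%, below the 18.2% and 20.7% of all genes. At 24 h they were 20.0% and 6.67%, against 14.3% and 9.97%. The disulphide isomerase PDIA6 fell to -2.16 ± 0.25 and the chaperone HYOU1 to -0.81 ± 0.30 at 48 h, while the oxidase ERO1B rose to 0.61 ± 0.24 and the co-chaperone DNAJC3 to 0.24 ± 0.014. At 24 h P4HB, another disulphide isomerase, rose to 0.84 ± 0.059, SDF2L1 to 0.36 ± 0.051 and DNAJC3 to 0.33 ± 0.082, and the co-chaperone DNAJB11 fell to -0.49 ± 0.083. Of 11 genes of ER-associated degradation, 1 rose and 2 fell at 48 h. At that time HERPUD2 fell to -1.98 ± 0.22 and VCP, the segregase that extracts proteins from the ER, to -0.57 ± 0.074, while DERL3 rose to 1.02 ± 0.14. At 24 h limma called 0 of the 11 (2 at an unadjusted p under 0.05), and their median was 0.38.

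Of 10 aminoacyl-tRNA synthetases, 0 rose and 4 fell at 48 h, and 3 rose and 0 fell at 24 h. In the difference 6 of 10 were lower at 48 h, against 13.1% of all genes. GARS1 fell to -1.88 ± 0.48, AARS1 to -1.67 ± 0.27 and EPRS1 to -1.66 ± 0.53 at 48 h. YARS1 rose to 1.14 ± 0.11, IARS1 to 0.89 ± 0.16 and SARS1 to 0.67 ± 0.052 at 24 h. Of 8 amino acid transporters, 1 rose and 3 fell at 48 h, and 2 rose and 0 fell at 24 h. SLC1A5, a glutamine carrier, fell to -1.77 ± 0.60 and the glycine carrier SLC6A9 to -1.77 ± 0.46 at 48 h, while SLC43A1 rose to 0.45 ± 0.039. SLC1A4, a carrier of alanine, serine and cysteine, fell to -0.79 ± 0.11 at 48 h and rose to 1.00 ± 0.28 at 24 h. SLC38A1 rose to 1.28 ± 0.043 at 24 h.

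Of 8 further genes of amino acid and one-carbon metabolism, 1 rose and 3 fell at 48 h, and 1 rose and 1 fell at 24 h. ALDH1L2, a mitochondrial folate enzyme, rose to 1.74 ± 0.0086 at 48 h (adjusted p = 0.00762) and to 2.06 ± 0.13 at 24 h (adjusted p = 0.0133). PYCR1, which makes proline, fell to -1.03 ± 0.27 and SHMT1 to -0.80 ± 0.17 at 48 h, and MTHFD1 fell to -0.81 ± 0.21 at 48 h and to -0.89 ± 0.015 at 24 h. Of 15 other genes listed as targets, 7 rose and 1 fell at 48 h, and 5 rose and 1 fell at 24 h. The list came from general knowledge, and whether each gene, BATF2 among them, is a target was not tested. AGR2, a disulphide isomerase of secretory epithelia, was at 5.85 ± 0.36 at 48 h (adjusted p = 0.00721) and at 5.22 ± 0.14 at 24 h (adjusted p = 0.0133). GDF15, a secreted cytokine that p53 also induces, was at 2.14 ± 0.57 at 48 h (adjusted p = 0.0231) and at 3.24 ± 0.18 at 24 h (adjusted p = 0.0211). The factor BATF2 rose to 1.98 ± 7.1e-05 at 48 h and to 1.48 ± 0.0205 at 24 h. KLHL24 fell to -0.44 ± 0.00071 at 48 h and to -0.65 ± 0.17 at 24 h.

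**Figure D4:**
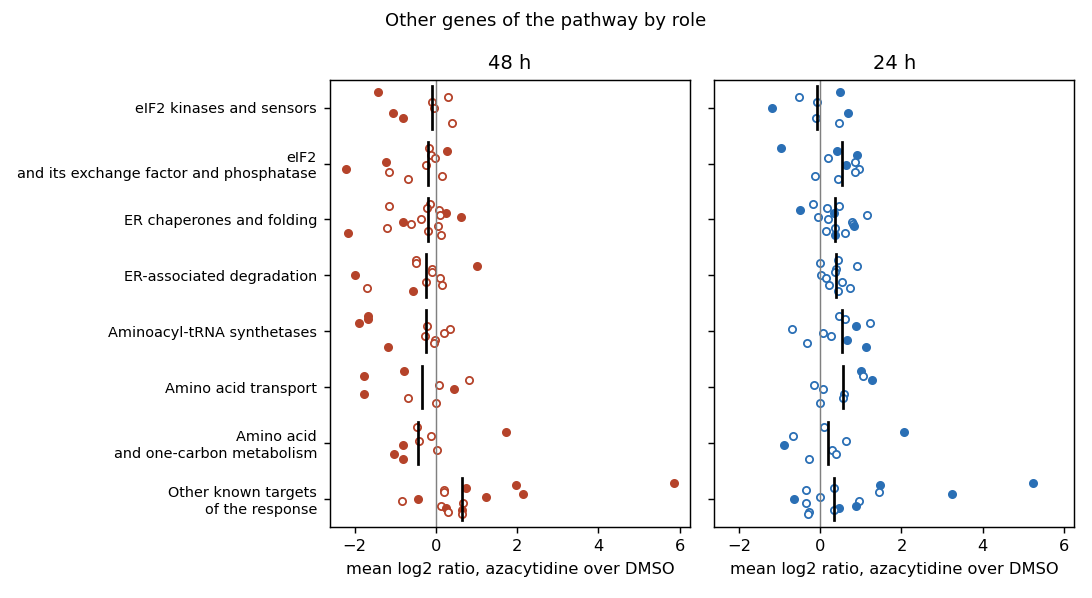
Mean log2 ratio of azacytidine over DMSO for the 84 other genes of the pathway by role, at 48 h (left) and 24 h (right), filled past an adjusted p of 0.05, with the median of each role as a black bar. The medians of the tRNA synthetases are -0.25 at 48 h and 0.54 at 24 h, and those of the transporters -0.35 at 48 h and 0.57 at 24 h.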

How the data were processed

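The authors deposited ratios for 45220 features, of which 43376 had values. The deposited values state no base and were assumed to be log10, the software's convention. Per the submitters' processing notes they came from Agilent Feature Extraction 8.5.1.1, with settings not given in the sources used here. Values were multiplied by log2 of 10. Between 6011 and 6695 features per array were listed at exactly 0, and all medians were 0. Features were named from the platform annotation, and 31332 with 1 symbol gave, as means, 18334 genes. The model (limma 3.58.1, R 4.3.3) had a mean per time, 2 residual and 0.735 prior degrees of freedom and Benjamini-Hochberg adjustment over all genes. The fit was run on simulated data with the same spread per gene at both times. That simulation cannot test calls where the spread differs between the times, as it did here. Genes past the threshold were named in full, and of the other pathway genes up to 3 per role, direction and time by size. The genes, lists and tests were chosen with earlier results of these data known, and those other genes from general knowledge. The single-feature test was added after seeing the data. Replicate 1 arrays deviated from their group means with r = -0.035 across genes between the times. Figures used matplotlib 3.10.9.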

Additional observations from a re-analysis of the deposited data

Results flagged for a closer look

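For 9 genes the ratio differed between 48 h and 24 h by the limma test of the difference itself (adjusted p from 0.0238 to 0.0444). Of the 29 genes 13.8% were higher at 48 h and 17.2% lower, against 9.83% and 13.1% of all genes. As 48 h minus 24 h on the log2 scale, the differences were 1.15 for CHAC1, 1.11 for ATF4, 0.89 for STC2 and 0.46 for EIF4EBP1. They were -0.93 for VLDLR, -1.37 for DDIT3, -1.74 for TRIB3, -2.86 for XBP1 and -3.44 for SLC7A11. EIF4EBP1 was below 0 at both times, so its positive difference is a smaller fall at 48 h. Each difference lost its call without 24 h replicate 1 and without 24 h replicate 2. For TRIB3 and ATF4, single features of the gene passed the test in both directions at 48 h.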

How the results depend on the processing

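No call of the 29 genes changed direction under the alternatives that give 1 value per gene. With features tested singly, 2 genes also had a feature called against the gene's own direction at 48 h, TRIB3 at 0.84 and ATF4 at -0.79. Of 38 calls of single genes, 23 kept their call under every alternative scaling, centring, feature rule and variance moderation. The other 15 lost it under at least 1. Centring could end no call, as the median of all genes was already 0 on every array. For genes read by 1 feature, taking the median of features or averaging accessions first left the value as it was. A kept call is thus weaker support than the number of alternatives makes it look. With the replicate number as a replicate block, limma called 0 of the 29 genes at 48 h (18 at an unadjusted p under 0.05), 0 at 24 h (16) and 0 in the difference (14), and 0 of the 84 other pathway genes in each (37, 38 and 30). The arrays share only that number, and the block leaves 1 residual degree of freedom. From the 48 h arrays alone it called 0 of the 29 (13) and 0 of the 84 (31). With each array left out in turn, calls of the 29 ran from 0 to 14 at 48 h, 0 to 16 at 24 h and 0 to 15 in the difference, and of the 84 from 0 to 39, 0 to 37 and 0 to 36. With arrays scaled to one spread there were 15 calls of the 29 in the difference, and of the 84 there were 41 at 24 h and 36 in the difference. Quantile normalization gave 16, 42 and 38 in the same order. Without features at 0 the difference gave 16 of the 29 and 38 of 83, and robust moderation gave 15 of the 84. From the 24 h arrays alone 37 of the 84 were called. Read as log2, the deposited values put the 24 h median of the 29 genes at 0.115. The shares of all genes called were not determined under these alternatives, so the counts cannot be set against the whole array. Causes were not tested. Intensities were not analysed here, so no limit of signal over background could be set.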

Other observations

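The median observed-to-expected CpG ratio was 0.893 over the 24 promoter windows of 300 bases, against 0.885 over 72 other genes of the pathway and 0.781 over 14411 genes of the array. Of the 24 windows 22, or 91.7%, stood at or above 0.6, against 88.9% of those other genes and 68.7% of the array's genes. In the single window used per gene, the 2 exceptions were ATF3 at 0.239 and ATF5 at 0.172. The ATF3 window lies at the outer start of the gene's annotated span. Its value describes that window alone, and the CpG content at any other start of ATF3 was not examined. ATF3 rose at both times while ATF5 passed the test at neither. VLDLR held the most CpG, with 49 in its window. Over the 29 genes the 48 h and 24 h means correlated with r = 0.142, against 0.428 over all genes. These are descriptions across genes that share arrays, and genes are not independent replicates.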
